A study of Mus musculus with 8 samples.

Results

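Full-grown mouse oocytes labelled as Mll2 knockout (KO) were compared with oocytes labelled as Mll2 wild type (WT), with 2 libraries in each group, so that 4 of the 8 libraries of the study enter. All 35976 gene symbols of the count table were members of the comparison, and only these 4 libraries were fitted together. The tissue of origin was the ovary, the stage was the full-grown oocyte, and the genotypes were given as wild type and Mll2 knockout. The promoter that drives the deletion, the exons removed, and the strain and age of the animals are unstated in the labels. The other 4 libraries are oocytes labelled as control and as double knockout (DKO) of H2A.Z.1 and H2A.Z.2, and they serve here only as an outside reference for expression level and for 1 test of a difference between lines. Each library was a pool of about 20 oocytes stripped of the zona pellucida, made into cDNA from polyadenylated RNA. The labels do not say that the replicates came from separate animals, so the p-values reflect no more than the spread among these 4 libraries, which may be technical.

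MLL2, encoded by Kmt2b, belongs to the family of enzymes that methylate lysine 4 of histone H3 (H3K4), a mark found at active and poised promoters. In growing oocytes MLL2 is known for placing this mark broadly, including at promoters rich in CpG dinucleotides and at regions that are not transcribed. Full-grown oocytes have largely stopped transcribing, and their RNA is mostly a store laid down during growth for meiosis and the early embryo. In a bulk library, a transcript lost from every cell and one present in fewer cells cannot be told apart, nor can less RNA per cell from fewer cells.

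The 4 libraries held between 26328854 and 30087863 counts. Values are in CPM, the counts of a gene per 1000000 counts of its library after scaling, and they compare libraries for 1 gene but not genes of different length. A gene was called higher or lower in KO when the edgeR quasi-likelihood test gave a Benjamini-Hochberg adjusted p under 0.05, and log2 differences are KO minus WT, with their standard error after the sign ±. The KO pair differed more between its 2 libraries than the WT pair. Among genes at 10 CPM or more, the median absolute log2 difference between replicates was 0.101 in WT and 0.229 in KO, and 12 of 8355 genes in WT and 66 of 8354 in KO differed more than 2-fold. The oocyte markers were all detected, and their summed level was 18047 and 22839 CPM in the WT pair and 18289 and 16707 CPM in the KO pair. Some markers of other cells had 0 counts in all 4 libraries. These were 2 of 18 granulosa and cumulus markers (Amh and Ptx3) and 3 of 10 theca and stroma markers (Col1a1, Col3a1 and Acta2). They also included 4 of 10 blood, immune and endothelial markers (Lyz2, Hbb-bs, Hba-a1 and Cdh5). Other members of the same lists were present. The granulosa and cumulus markers Cyp19a1 and Nr5a2 spanned 29.9 to 54.9 and 36.3 to 62.4 CPM over the 4 libraries. Pecam1, of the blood, immune and endothelial list, spanned 34.6 to 43.6 CPM. Cyp11a1, of the theca and stroma list, spanned 5.21 to 7.21 CPM.

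Kmt2b itself (chromosome 7, 30568855 to 30589056 on build GRCm38) fell in both KO libraries. It measured 44.7 and 45.5 CPM across WT but 9.37 and 9.92 CPM across KO, a 4.67-fold decrease (log2 -2.22 ± 0.17, adjusted p = 2.24e-05), and the call held without any 1 of the 4 libraries. The KO libraries lay far below both WT libraries and close to each other. The H2A.Z controls held less Kmt2b than Mll2 WT, at 13.7 and 15.4 CPM when all 8 libraries were scaled together. That scaling put WT 1 at 41.9, WT 2 at 42.4, KO 1 at 8.73 and KO 2 at 9.28 CPM. The level in these controls thus lay between the Mll2 groups and nearer to KO. The cause of this difference between control oocytes of the 2 lines was not tested. Counts were taken over the whole gene, so transcripts of a deleted allele that keep other exons are included. The symbol Mll2 has also been used for Kmt2d, another H3K4 methyltransferase gene, which measured 93.5 (WT 1) and 85.8 CPM (WT 2) against 85.8 (KO 1) and 104 CPM (KO 2) (log2 0.08 ± 0.14, adjusted p = 0.722). Its groups overlapped, and without KO 2 its difference was -0.06. Kmt2c, a further member of the family, measured 318 and 320.3 CPM in the WT pair and 248 and 305 CPM in the KO pair (log2 -0.21 ± 0.14, adjusted p = 0.307), and was called lower only without KO 2 (adjusted p = 0.00657). Setd1a and Setd1b, which encode the catalytic subunits of the general H3K4 methyltransferase complexes, measured 35.4 and 30.6 CPM in the WT pair and 32.8 and 50.8 CPM in the KO pair, and 10.9 (WT 1) and 11.1 CPM (WT 2) against 11.6 (KO 1) and 16.2 CPM (KO 2). Neither passed the test (adjusted p = 0.266 and 0.284), with KO 2 the highest library for both, and both were called higher without KO 1 (adjusted p = 0.000351 and 0.0102). Without KO 2 the difference of Setd1a was -0.01. Kmt2a had only 6 and 8 counts in WT and 3 and 4 in KO and was not tested.

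**Figure D1:**
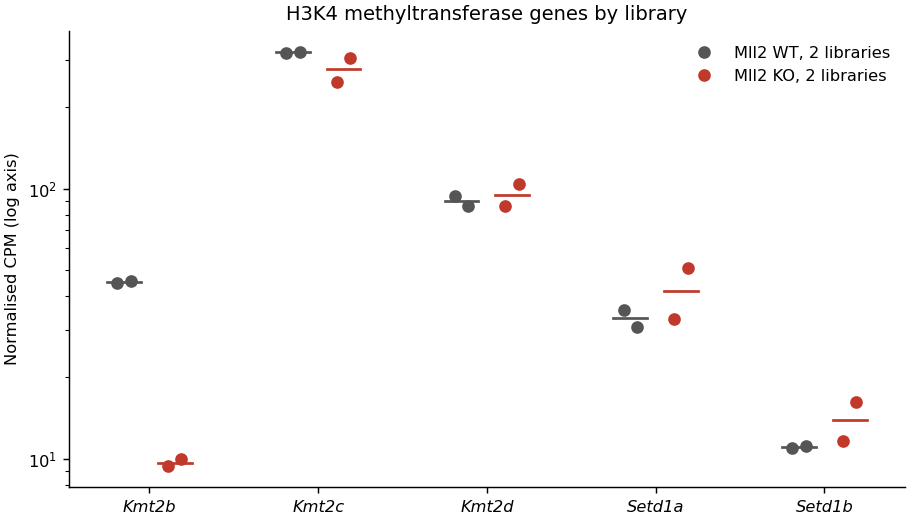
Normalised CPM (log axis) of 5 H3K4 methyltransferase genes in the 2 Mll2 WT and 2 Mll2 KO libraries. Points are libraries and bars are group means. Kmt2b lies at 44.7 and 45.5 CPM in WT and at 9.37 and 9.92 CPM in KO, while the other genes differ less between groups.

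The comparison asked which stored transcripts differ between oocytes labelled as Mll2 KO and as Mll2 WT. Of 16127 genes tested, 3466 (21.5%) were called, 1636 higher in KO (10.1%) and 1830 lower (11.3%). More than 4-fold changes were seen for 295 of the genes higher and 394 of those lower, and more than 8-fold changes for 92 and 177. In every called gene the 2 KO libraries lay on the same side of both WT libraries. The number of calls depended on single libraries. Without WT 1 or WT 2 there were 728 and 637 genes higher and 1070 and 904 lower, and without KO 1 or KO 2 there were 3378 and 2060 higher and 3485 and 2452 lower. A core of 1183 genes, 425 higher and 758 lower, was called in all 4 of these fits and in the fit with every library. Scaled by library size alone, the tested genes had a median log2 difference of 0.14 in place of 0.02, and 62.3% in place of 47.2% of the calls were higher.

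**Figure D2:**
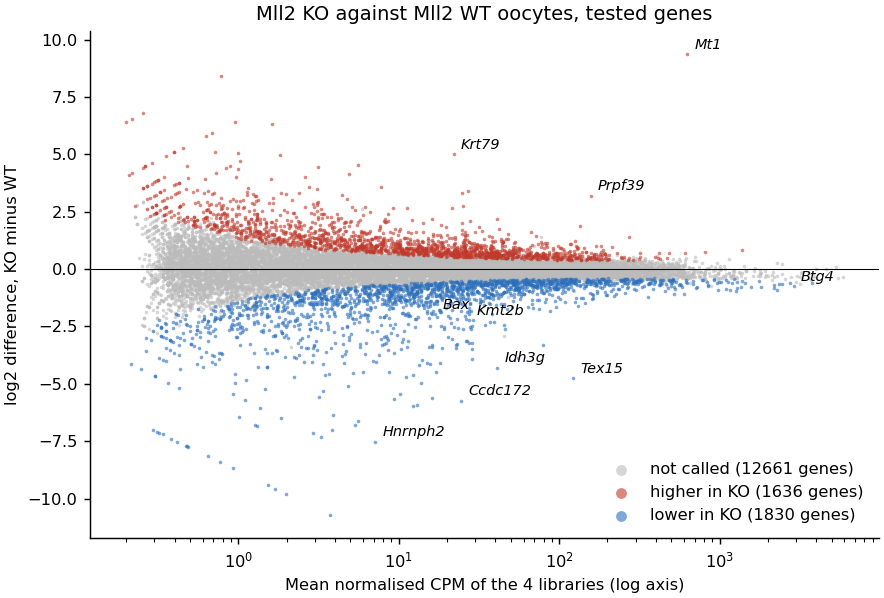
Log2 difference (KO minus WT) of each of the 16127 tested genes against its mean normalised CPM over the 4 libraries (log axis). Red points are the 1636 genes called higher and blue points the 1830 called lower. Named genes are among those described in the text, and lower calls reach farther from 0 than higher calls at intermediate levels, apart from Mt1 at the top.

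The printed promoters belong to the 3 genes with the largest increase and the 3 with the largest decrease among called genes of at least 10 CPM in the group where they were higher, predicted symbols aside, that have a window in the RefSeq table (GRCm38.p6). Each runs from 250 bases before to 50 after the annotated start, 5′ to 3′ on the gene's strand. They are shown because MLL2 acts at CpG-rich promoters and because metallothionein genes are known targets of a metal-sensing transcription factor. In Mt1 the capitals mark the core of the metal response element, TGCACNC or TGCGCNC on either strand. In the other 5 the capitals mark each CG.
Mt1 (chr8:94178839-94179138, plus strand): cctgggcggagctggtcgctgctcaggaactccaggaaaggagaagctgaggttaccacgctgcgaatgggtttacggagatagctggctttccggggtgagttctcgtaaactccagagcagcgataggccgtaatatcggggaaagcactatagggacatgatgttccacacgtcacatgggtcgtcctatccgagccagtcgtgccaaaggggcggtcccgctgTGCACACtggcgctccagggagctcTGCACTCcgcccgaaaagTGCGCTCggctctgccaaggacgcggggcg
Krt79 (chr15:101940275-101940574, minus strand): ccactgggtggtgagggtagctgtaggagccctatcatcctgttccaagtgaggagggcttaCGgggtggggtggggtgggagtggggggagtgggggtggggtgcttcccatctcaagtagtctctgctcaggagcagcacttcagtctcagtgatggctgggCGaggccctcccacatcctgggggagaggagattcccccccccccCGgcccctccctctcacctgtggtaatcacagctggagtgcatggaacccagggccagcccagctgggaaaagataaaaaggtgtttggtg
Ntf3, first of 2 windows (chr6:126166695-126166994, minus strand): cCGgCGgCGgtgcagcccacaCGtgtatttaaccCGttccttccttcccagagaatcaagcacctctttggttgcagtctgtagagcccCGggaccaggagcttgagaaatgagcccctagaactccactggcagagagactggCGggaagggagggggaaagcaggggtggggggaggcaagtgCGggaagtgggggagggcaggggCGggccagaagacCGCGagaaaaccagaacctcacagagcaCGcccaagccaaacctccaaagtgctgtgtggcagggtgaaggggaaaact
Hnrnph2 (chrX:134600929-134601228, plus strand): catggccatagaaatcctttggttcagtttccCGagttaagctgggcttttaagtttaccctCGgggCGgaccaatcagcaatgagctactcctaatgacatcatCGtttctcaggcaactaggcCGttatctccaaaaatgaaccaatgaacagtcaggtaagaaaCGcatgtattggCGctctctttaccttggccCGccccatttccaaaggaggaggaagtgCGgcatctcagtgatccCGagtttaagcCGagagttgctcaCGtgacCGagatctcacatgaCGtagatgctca
Zfp512 (chr5:31452186-31452485, plus strand): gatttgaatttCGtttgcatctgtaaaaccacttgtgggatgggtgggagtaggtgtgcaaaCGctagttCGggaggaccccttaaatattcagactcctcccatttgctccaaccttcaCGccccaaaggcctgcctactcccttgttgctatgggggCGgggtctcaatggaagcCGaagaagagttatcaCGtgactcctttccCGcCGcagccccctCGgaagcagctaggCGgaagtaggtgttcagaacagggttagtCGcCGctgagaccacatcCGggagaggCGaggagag
Fmr1nb (chrX:68761589-68761888, plus strand): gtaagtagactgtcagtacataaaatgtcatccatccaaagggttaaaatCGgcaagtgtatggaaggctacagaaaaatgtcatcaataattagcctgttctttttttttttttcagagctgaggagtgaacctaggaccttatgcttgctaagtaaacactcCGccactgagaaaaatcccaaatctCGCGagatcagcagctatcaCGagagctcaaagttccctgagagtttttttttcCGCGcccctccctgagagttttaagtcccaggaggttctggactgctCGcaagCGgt

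The Mt1 window held 3 such cores, and 1.97% of the 32851 promoter windows in the table held 3 or more, while 25.7% held at least 1. The Krt79 and Zfp512 windows held 1 core each, not marked above, and those of Ntf3, Hnrnph2 and Fmr1nb held 0. The number of CG was 24 in the Mt1 window, where they are not marked, 3 in Krt79 and 12 in Ntf3. It was 14 in Hnrnph2, 15 in Zfp512 and 9 in Fmr1nb, where the median window held 7 and 94.6% held at least 1. The genes that rose and those that fell thus both include windows above the median. A match describes the letters only. Because 12410 of the 16127 tested genes (77.0%) had a window, CG content was not compared between genes higher and lower.

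Mt1, a metallothionein that binds zinc and copper, had the largest rise among genes of at least 10 CPM in either group. It measured 1.45 and 2.37 CPM in the WT pair and 1262 and 1253 CPM in the KO pair, a 657-fold difference (log2 9.36 ± 0.24, adjusted p = 2.92e-08), and went from near absence to a place among the abundant transcripts. Krt79, a keratin gene, rose from 1.41 and 1.24 to 35.2 and 49.9 CPM (log2 5.0 ± 0.26, adjusted p = 3.48e-06). Ntf3, which encodes the growth factor neurotrophin 3, rose from 0.282 and 0.637 to 11.6 and 9.85 CPM (log2 4.53 ± 0.35, adjusted p = 2.83e-05). It was the only gene under 1 CPM in WT and at 10 CPM or more in KO by group mean. Splicing factors were represented by Prpf39, a protein of the U1 particle, with 27.8 and 33.9 CPM across WT but 331 and 237 CPM across KO (log2 3.20 ± 0.19, adjusted p = 5.22e-06), and by Cdc5l, of the PRP19 complex, with 0.988 (WT 1) and 1.42 CPM (WT 2) against 11.5 (KO 1) and 17.2 CPM (KO 2) (log2 3.57 ± 0.30, adjusted p = 4.87e-05). Ptgds, a prostaglandin D synthase gene, rose from 4.34 and 5.06 to 44.9 and 54.2 CPM, and the chemokine gene Ccl2 from 5.54 and 6.30 to 49.8 and 24.4 CPM, with KO 1 well above KO 2. The log2 differences were 3.40 ± 0.20 and 2.65 ± 0.31 (adjusted p = 5.1e-06 and 0.000326). Terf2ip, which encodes the telomere protein RAP1, rose from 4.27 and 1.88 to 22.5 and 16.5 CPM (log2 2.66 ± 0.34), and Prkcb, a protein kinase C gene, from 3.28 and 2.19 to 13.5 and 15.3 CPM (log2 2.40 ± 0.25). The germ-cell gene Tex19.2 (log2 2.71 ± 0.30) and 2 X-linked genes, Cldn34d of the claudin family (log2 3.33 ± 0.29) and Ube2dnl1 of the ubiquitin-conjugating enzyme family (log2 2.34 ± 0.40), complete the 12 largest increases. All 12 kept their call without any 1 of the 4 libraries.

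The 12 largest decreases under the same limit of 10 CPM mostly took transcripts of moderate level to near 0. Hnrnph2, an X-linked gene of an RNA-binding protein, measured 15.1 and 13.2 CPM in the WT pair and 0.145 and 0 CPM in the KO pair, with 4 and 0 counts in KO (log2 -7.53 ± 0.50, adjusted p = 9.94e-06). Without KO 1 the remaining KO library had 0 counts and the fitted value was -11.64. Zfp512, a zinc finger gene, fell from 10.7 and 11.4 to 0.145 and 0.0719 CPM (log2 -6.62 ± 0.38), and Zfp788, another, from 16.4 and 20.3 to 0.217 and 0.503 CPM (log2 -5.65 ± 0.35). Tex15, a germ-cell gene known for roles in meiotic recombination and in silencing transposons in the testis, was the most abundant of the 12. It measured 204 and 267 CPM across WT but 10.5 and 6.83 CPM across KO (log2 -4.76 ± 0.23, adjusted p = 3.06e-06), so that both KO libraries lay far below both WT libraries. Ccdc172, a coiled-coil protein gene, measured 49.4 (WT 1) and 46.8 CPM (WT 2) against 0.760 (KO 1) and 1.04 CPM (KO 2) (log2 -5.73 ± 0.23, adjusted p = 1.27e-06), and Efcab7, whose product acts in Hedgehog signalling at the cilium, 20.8 and 22.2 CPM in the WT pair and 0.543 and 1.11 CPM in the KO pair (log2 -4.69 ± 0.31, adjusted p = 9.51e-06). Gli3, a transcription factor of the same pathway, fell from 21.1 and 42.5 to 0.470 and 0.827 CPM (log2 -5.61 ± 0.41, adjusted p = 1.94e-05), but WT 2 lay well above WT 1 and the call was lost without KO 1 or KO 2 (adjusted p = 0.188 and 0.196). Commd8, a COMM-domain gene, fell from 23.5 and 27.4 to 0.832 and 0 CPM (log2 -5.92 ± 0.66, -12.48 without KO 1), and was not called with DESeq2 (adjusted p = 0.064). The last 4 were X-linked: Fmr1nb (log2 -5.99 ± 0.32), Xlr3c (log2 -5.45 ± 0.34), Tmem47 (log2 -4.98 ± 0.29) and Xlr4b (log2 -4.61 ± 0.25). In all, 18 genes were at 10 CPM or more in WT and under 1 CPM in KO by group mean, and 5 of them were on the X chromosome. Outside the 12 largest they include Ubr1, a ubiquitin ligase gene of the N-degron pathway, with 12.1 and 10.8 CPM across WT but 0.977 and 0.791 CPM across KO, and Eri2, an exonuclease family gene, with 17.1 (WT 1) and 16.0 CPM (WT 2) against 0.832 (KO 1) and 0.647 CPM (KO 2).

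**Figure D3:**
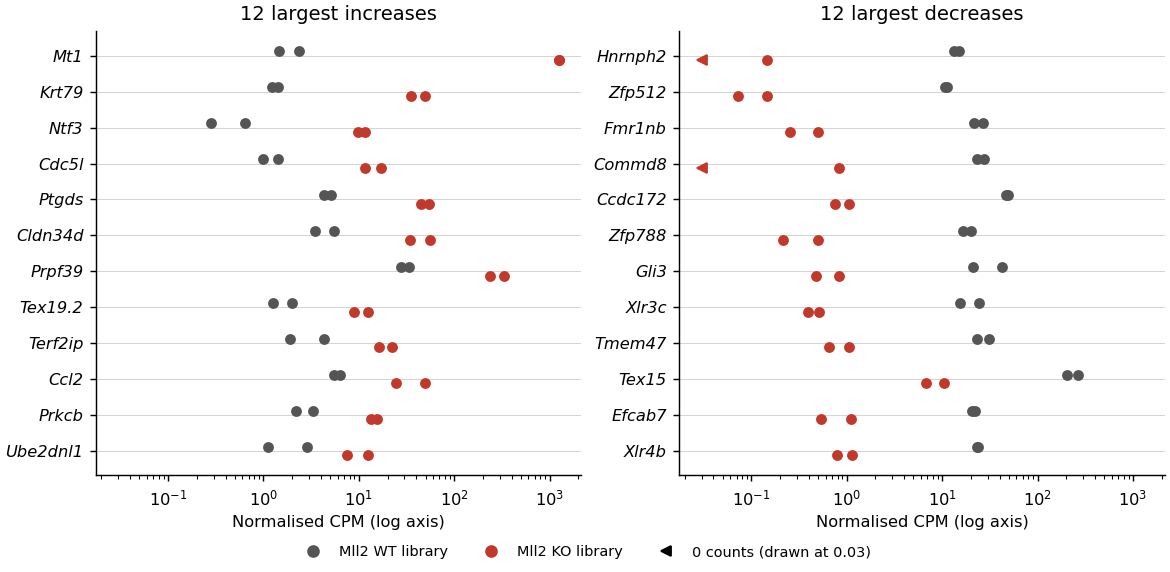
Normalised CPM (log axis) in each library of the 12 genes with the largest increase (left) and the 12 with the largest decrease (right) among called genes of at least 10 CPM in the group where they were higher. Grey points are Mll2 WT libraries, red points Mll2 KO libraries, and triangles mark 0 counts. The groups do not overlap in any of the 24 genes, which the rule that chose them requires.

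The median log2 difference fell as the level of expression rose. To avoid sorting genes by the same values that were compared, levels were taken from the H2A.Z control oocytes, which were not in the fit. Among the 304 genes over 500 CPM there, 75 were lower in Mll2 KO (24.7%) and 1 was higher (0.329%), with a median log2 difference of -0.31. This share depended on single libraries, and without WT 2 it lay below the share lower among all tested genes of that fit. The median ranged from -0.40 without KO 1 to -0.18 without KO 2, and the medians of the bins fell in order in each fit without 1 library. Among the 2895 genes at 1 CPM or less, 354 were higher (12.2%) and 108 lower (3.73%), with a median of 0.32. Such genes passed the filter only where an Mll2 group held enough counts. With no filter 4.16% of them were higher and 1.53% lower, against 8.58% and 9.24% of all genes in that fit. The bins between them fell in order, with medians of 0.12, 0.08, -0.03, -0.07 and -0.13, which were 0.24, 0.20, 0.09, 0.05 and -0.01 with library size alone, against 0.45 and -0.19 in the outer bins. The abundant genes that fell include Btg4, an adaptor for mRNA deadenylation at meiotic maturation, with 3294 and 3982 CPM in the WT pair and 2447 and 1872 CPM in the KO pair (log2 -0.75 ± 0.18, adjusted p = 0.0149), and Rdx, which links actin to the membrane, with 4293 and 4767 CPM across WT but 3168 and 2862 CPM across KO (log2 -0.59 ± 0.15, adjusted p = 0.0226). Bcl2l10, an oocyte member of the BCL2 family, fell from 3137 and 3485 to 2325 and 2079 CPM (log2 -0.59 ± 0.15, adjusted p = 0.021). These calls were of modest size and were lost without WT 2 (adjusted p = 0.166, 0.292 and 0.279), and those of Rdx and Bcl2l10 also without WT 1 (adjusted p = 0.12 and 0.11). The oocyte F-box gene Fbxw15 (log2 -0.92 ± 0.22, adjusted p = 0.0159) and Skp1a, a subunit gene of the SCF ubiquitin ligase (log2 -0.66 ± 0.20, adjusted p = 0.0416), likewise lost theirs without WT 2 (adjusted p = 0.0724 and 0.37). Skp1a was also not called without KO 2, where its difference was -0.42 (adjusted p = 0.0533).

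Among abundant transcripts that rose were ND1 and ND2, subunit genes of respiratory complex I on the mitochondrial genome. ND1 measured 956 (WT 1) and 1027 CPM (WT 2) against 1409 (KO 1) and 2145 CPM (KO 2) (log2 0.84 ± 0.19, adjusted p = 0.013), and ND2 610.2 and 600.0 CPM in the WT pair and 762 and 1283 CPM in the KO pair (log2 0.76 ± 0.21, adjusted p = 0.0297). Both were highest in KO 2, and of the 10 mitochondrial genes tested these 2 were higher and 0 lower. Among the uncalled, COX2, ATP6 and COX3 lay at only 0.247 to 1.19 CPM over the 4 libraries. CYTB measured 1872 and 2297 CPM in the WT pair and 1842 and 3096 CPM in the KO pair and was not called (adjusted p = 0.465). Without KO 2 the differences of ND1 and ND2 were 0.51 and 0.33, and without WT 1 neither was called (adjusted p = 0.0565 and 0.0563), nor was ND2 without WT 2 (adjusted p = 0.0744). Atp2a2, the calcium pump of the endoplasmic reticulum, measured 448 (WT 1) and 481 CPM (WT 2) against 635 (KO 1) and 873 CPM (KO 2) (log2 0.70 ± 0.17, adjusted p = 0.015), and Sod1, a superoxide dismutase, 361 and 376 CPM in the WT pair and 473 and 737 CPM in the KO pair (log2 0.71 ± 0.19, adjusted p = 0.0245). Their differences without KO 2 were 0.45 and 0.36. Neither was called without WT 1 (adjusted p = 0.12 and 0.0882) or without WT 2 (adjusted p = 0.0649 and 0.0649). Med21, of the Mediator complex, had more even KO libraries, with 380.3 and 392.5 CPM across WT but 543 and 552 CPM across KO (log2 0.50 ± 0.13, adjusted p = 0.0196), and lost its call without either WT library (adjusted p = 0.284 and 0.246).

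Genes on the X chromosome were called lower more often than genes on any autosome. Of 497 X-linked genes tested, 123 were lower (24.7%) and 48 higher, where 11.1% of 15131 autosomal genes were lower and the autosomes ranged from 7.98% on chromosome 11 to 14.7% on chromosome 3. More than 4-fold decreases were seen for 47 X-linked genes (9.46%) and for 2.25% of autosomal genes. The median log2 difference was -0.17 on the X chromosome and 0.02 on the autosomes. The X share was above the autosomal one at each of 3 expression levels taken from the H2A.Z controls, with 17.2% against 6.74% at 5 CPM or less, 33.2% against 13.3% over 5 to 50 CPM, and 25.3% against 15.3% over 50 CPM. It also lay above in every fit that left out 1 library, where the X share ran from 15.6% without WT 2 to 32.4% without KO 1 and the autosomal share from 5.06% to 20.6% without the same libraries. These shares are descriptions, since genes on 1 chromosome are not independent.

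**Figure D4:**
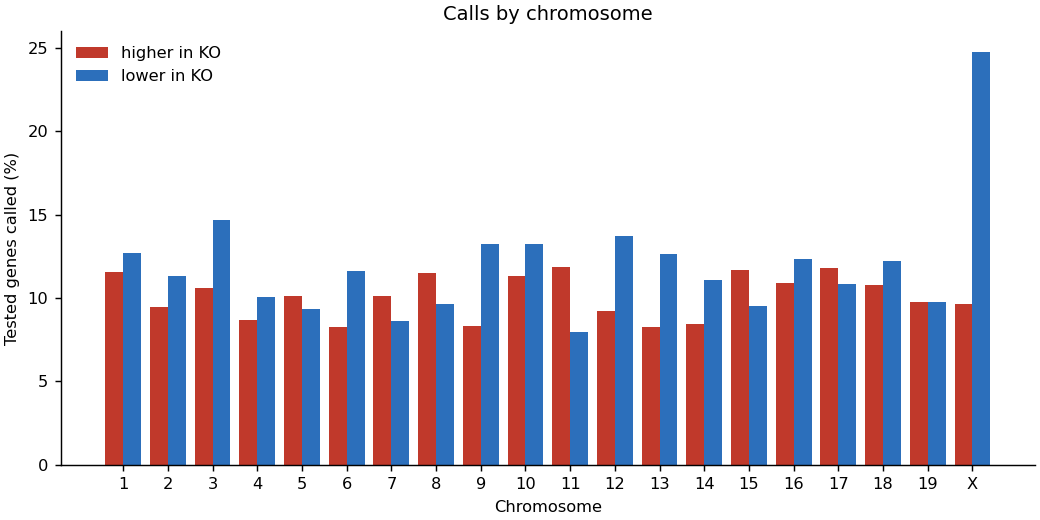
Percentage of tested genes called higher (red) and lower (blue) in Mll2 KO on each chromosome, as bars from 0. The X chromosome has 24.7% of its tested genes lower, and the highest autosomal value is 14.7% on chromosome 3.

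Several of these X-linked genes lie close together. In a stretch of 3 megabases, X from 73000000 to 76000000 on GRCm38, chosen after its values were seen, 26 of 53 tested genes were lower and 3 higher, and 15 of the 26 fell more than 4-fold. The Xlr genes, which encode relatives of the synaptonemal complex protein SYCP3, lie there. Xlr4b measured 23.2 (WT 1) and 23.6 CPM (WT 2) against 1.12 (KO 1) and 0.791 CPM (KO 2), Xlr4c 28.1 and 31.6 CPM in the WT pair and 1.56 and 1.80 CPM in the KO pair, and Xlr3b 6.70 and 6.69 CPM across WT but 0.398 and 0.144 CPM across KO. Xlr4a, Xlr5a, Xlr5b, Xlr3c and Xlr5c were also lower, with log2 differences from -5.45 for Xlr3c to -2.19 for Xlr5a, which was not called without WT 1 (adjusted p = 0.136). Xlr5b had 5 and 0 counts in KO, and its difference of -3.79 was -8.20 without KO 1. Xlr3a, between Xlr4a and Xlr5a in the same cluster, measured 107 (WT 1) and 106 CPM (WT 2) against 103 (KO 1) and 90.9 CPM (KO 2). It was not called (log2 -0.13 ± 0.13, adjusted p = 0.511), nor was the more distant Xlr (log2 -1.50 ± 0.80, adjusted p = 0.202). Copies of this family are similar, so reads shared between them cannot be assigned with certainty. Neighbouring genes outside the family fell as well. Idh3g, a subunit gene of the isocitrate dehydrogenase of the citrate cycle, measured 78.6 and 78.4 CPM in the WT pair and 4.59 and 3.42 CPM in the KO pair (log2 -4.29 ± 0.20, adjusted p = 2.9e-06), and the adjacent Ssr4, of the translocon at the endoplasmic reticulum, 43.0 and 40.2 CPM across WT but 4.48 and 3.16 CPM across KO (log2 -3.44 ± 0.21, adjusted p = 7.06e-06). Lage3, of the KEOPS complex that modifies tRNA, measured 26.8 (WT 1) and 29.5 CPM (WT 2) against 1.56 (KO 1) and 1.76 CPM (KO 2) (log2 -4.08 ± 0.22), and the transketolase-like gene Tktl1 had 41 and 45 counts in WT and 0 in both KO libraries, at least 28.1-fold lower at a floor of 3 counts over the KO group. A second adjacent pair lies elsewhere on the X chromosome. Hnrnph2 fell as described, and Gla, the lysosomal alpha-galactosidase gene next to it, had 32 and 40 counts in WT and 0 in KO, at least 23.5-fold lower at the same floor. The other X-linked genes lower in KO include Rpgr, a ciliary gene, with 31.8 and 36.7 CPM in the WT pair and 3.29 and 2.98 CPM in the KO pair (log2 -3.45 ± 0.20), and the kinase gene Araf, with 15.5 and 14.7 CPM across WT but 1.63 and 2.08 CPM across KO (log2 -3.02 ± 0.24).

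Gene lists were described by how many tested members were called, to be read against 10.1% of all tested genes higher and 11.3% lower and a median of 0.02. Leaving out a library moves these shares too. Over all tested genes they were 4.30% higher and 6.31% lower without WT 1, 3.76% and 5.33% without WT 2, 20.02% and 20.6% without KO 1, and 12.19% and 14.5% without KO 2, and list counts from those fits are to be read against them. Lists of abundant transcripts also share the lean of their level, since 3.11% of the 2055 tested genes over 100 CPM in the H2A.Z controls were higher and 16.7% lower, with a median of -0.16. Single genes named from the lists, other than the follicle cell markers, kept their call without any 1 of the 4 libraries unless an adjusted p without a library is given. Meiotic chromosome genes had more members lower than higher. Of 40 genes of meiotic cohesin, synapsis and recombination, 11 were lower and 1 higher, with a median of -0.21, and 7 of the 11 fell more than 2-fold. Tex12, of the central element of the synaptonemal complex, measured 64.9 (WT 1) and 87.9 CPM (WT 2) against 16.6 (KO 1) and 11.4 CPM (KO 2) (log2 -2.45 ± 0.22, adjusted p = 6.96e-05), and Sycp3, of its lateral element, 41.0 and 44.8 CPM in the WT pair and 4.45 and 9.63 CPM in the KO pair (log2 -2.61 ± 0.30, adjusted p = 0.000293). Hormad2, which marks unsynapsed chromosome axes, fell from 9.07 and 10.4 to 2.71 and 2.26 CPM (log2 -1.97 ± 0.24). Majin, which attaches telomeres to the nuclear envelope, fell from 2.61 and 2.37 to 0.0362 and 0 CPM, which is 1 and 0 counts in KO. The number lower was 8 and 6 without WT 1 and WT 2, and 17 and 12 without KO 1 and KO 2. The small RNA and piRNA list had 6 of 27 lower and 1 higher (median -0.15). Mael, a piRNA pathway gene, measured 113 and 118 CPM across WT but 39.4 and 30.5 CPM across KO (log2 -1.72 ± 0.16, adjusted p = 7.92e-05). Ago2, the slicer of small RNA pathways, fell from 72.9 and 64.1 to 40.6 and 33.9 CPM (log2 -0.88 ± 0.16). Asz1 and Tdrd7 had log2 differences of -0.67 and -0.79 and were not called without WT 2 (adjusted p = 0.0741 and 0.269), nor Tdrd7 without WT 1 (adjusted p = 0.0871). The piRNA list had 3 and 2 lower without WT 1 and WT 2, and 11 without KO 1.

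Spindle and checkpoint genes also had more members lower than higher, and 27 of the 48 and 16 of the 31 tested are over 100 CPM in the H2A.Z controls. Of 48 spindle, kinetochore and segregation genes 10 were lower and 1 higher (median -0.17), and of 31 genes of the anaphase-promoting complex (APC/C) and the spindle checkpoint 6 were lower and 2 higher (median -0.23). Mad2l1bp, whose product turns off the checkpoint protein MAD2, measured 42.0 (WT 1) and 40.9 CPM (WT 2) against 5.21 (KO 1) and 3.13 CPM (KO 2) (log2 -3.31 ± 0.24, adjusted p = 1.85e-05). The APC/C subunit gene Cdc16 fell from 35.5 and 34.1 to 14.9 and 13.6 CPM (log2 -1.29 ± 0.17, adjusted p = 0.000683). Cenpi, an X-linked kinetochore gene, fell from 15.1 and 14.5 to 1.77 and 2.12 CPM (log2 -2.92 ± 0.24, adjusted p = 3.2e-05). Prc1, which bundles microtubules of the central spindle, measured 901 and 923 CPM in the WT pair and 524 and 518 CPM in the KO pair (log2 -0.81 ± 0.13), and Haus1, of the augmin complex, 68.5 and 75.8 CPM across WT but 44.4 and 31.7 CPM across KO (log2 -0.92 ± 0.18). Bub1b, the checkpoint kinase gene BubR1, measured 1157 (WT 1) and 1166 CPM (WT 2) against 745 (KO 1) and 789 CPM (KO 2) (log2 -0.60 ± 0.13, adjusted p = 0.0119) and was not called without WT 1 or WT 2 (adjusted p = 0.128 and 0.151). Anapc16 and Top2a, with log2 differences of -0.66 and -0.73, were not called without WT 2 (adjusted p = 0.0865 and 0.151). The number of spindle genes lower was 5 and 3 without WT 1 and WT 2 and 24 without KO 1, where the 6.25% without WT 2 is near the share of all genes in that fit, and that of APC/C and checkpoint genes was 3 without either WT library, 15 without KO 1 and 10 without KO 2. Meiotic resumption and M-phase kinase genes had 1 of 34 higher and 1 lower (median -0.14). The X-linked cyclin gene Ccnb3, which acts at the first meiotic division, fell from 43.2 and 45.4 to 23.7 and 25.2 CPM (log2 -0.86 ± 0.15, adjusted p = 0.00407), and Ccna2 rose from 156 and 141 to 210.4 and 260.4 CPM (log2 0.66 ± 0.14, adjusted p = 0.148 without WT 2). That list had 13 lower and 6 higher without KO 1 and 4 lower without KO 2.

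The zona, maternal-effect and mRNA storage lists each had more members lower than higher, but 13 of 17, 27 of 33 and 12 of 33 of their tested members are over 100 CPM in the H2A.Z controls, a level at which genes in general were more often lower. Zona pellucida and oocyte-secreted factors had 5 of 17 lower and 0 higher (median -0.32), but 0 were lower without WT 2, 2 without WT 1 and 10 without KO 1. Zp2, a structural protein of the zona, measured 2013 and 3529.9 CPM in the WT pair and 1763 and 1379 CPM in the KO pair (log2 -0.82 ± 0.24, adjusted p = 0.0358), with WT 2 the highest library, and was not called without WT 2, KO 1 or KO 2 (adjusted p = 0.49, 0.446 and 0.605). Its difference without WT 2 was -0.36. Oosp3, an oocyte-secreted protein gene, fell from 1909.7 and 2046 to 1216 and 1086 CPM (log2 -0.78 ± 0.14, adjusted p = 0.0619 without WT 2). Kit, the receptor through which granulosa cells promote oocyte growth, measured 182 and 172 CPM across WT but 111 and 132 CPM across KO (log2 -0.54 ± 0.14, adjusted p = 0.0195, and 0.199 and 0.128 without WT 1 and WT 2). The maternal-effect list had 4 of 33 lower, a share of 12.1% that is near that of all tested genes, and 0 higher (median -0.18). Nlrp9b, an oocyte NLR gene, fell from 512 and 697 to 345 and 279 CPM (log2 -0.95 ± 0.17, adjusted p = 0.00445), and Khdc3, of the subcortical maternal complex, measured 507 (WT 1) and 626 CPM (WT 2) against 444 (KO 1) and 358 CPM (KO 2) (log2 -0.50 ± 0.16, adjusted p = 0.0485, and 0.0843 and 0.484 without WT 1 and WT 2). The number lower on this list was 2 without WT 2, 14 without KO 1 and 7 without KO 2. Among 33 genes of maternal mRNA storage, translation and decay, 6 were lower and 1 higher, and the median of -0.06 became 0.06 with library size alone. Cnot7, a deadenylase subunit gene, measured 595 and 633 CPM in the WT pair and 338 and 347 CPM in the KO pair (log2 -0.84 ± 0.13, adjusted p = 0.00168). The reader of methylated RNA Ythdf2 rose from 72.9 and 73.2 to 116 and 107 CPM (log2 0.62 ± 0.13, adjusted p = 0.00926, and 0.13 and 0.142 without WT 1 and WT 2), and this list had 2 and 1 lower without WT 1 and WT 2, 10 lower without KO 2, and 12 higher without KO 1. Oocyte transcription factors had 2 of 18 higher and 1 lower, with a median of -0.02 that was 0.11 with library size alone, and had 5 higher and 7 lower without KO 1 and 0 called without WT 2. Of the 12 oocyte markers, Zp2 and Kit were lower and 0 were higher, and without WT 2 there were 0 lower, without KO 1 4. Egg activation and calcium signalling genes had 2 of 25 higher and 1 lower (median 0.04), with 0 higher without either WT library and 7 without KO 1. The one lower was Ppp3ca, a catalytic subunit of the calcium-dependent phosphatase calcineurin, which measured 17.9 and 19.7 CPM across WT but 1.88 and 2.23 CPM across KO (log2 -3.19 ± 0.23, adjusted p = 1.71e-05).

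**Figure D5:**
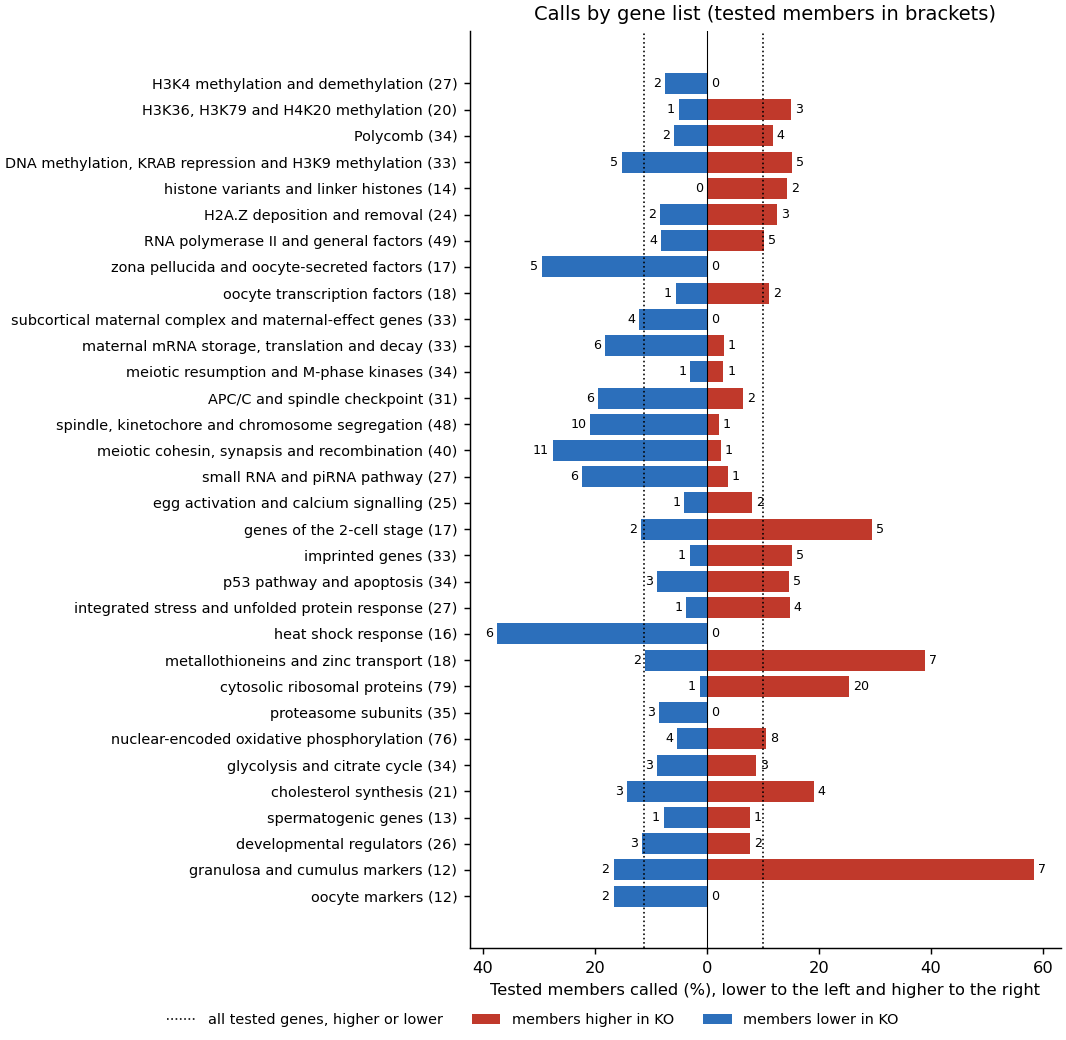
Percentage of tested members called higher (red, to the right) and lower (blue, to the left) in Mll2 KO for each gene list with at least 10 tested members, whose number is in brackets. Numbers at the bars are members called, and dotted lines mark the shares over all tested genes (10.1% higher and 11.3% lower). Lists that share genes are not independent.

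Chromatin genes were called in both directions, as were all tested genes (10.1% higher and 11.3% lower). Polycomb genes had 11.8% higher and 5.88% lower, and H2A.Z deposition and removal genes 12.5% and 8.33%. RNA polymerase II and general factors had 10.2% and 8.16%. These are near the shares of all genes, so the counts are not a result about those lists. The H3K4 list had 0% and 7.41%, histone variants 14.3% and 0%, and DNA or H3K9 methylation 15.2% each way. H3K36, H3K79 and H4K20 methylation had 15% and 5%. The list of H3K4 methylation and demethylation had 2 of 27 lower and 0 higher (median 0.04, and -0.06 without KO 2), and the 2 were Kmt2b and Kdm5b, an H3K4 demethylase gene. Kdm5b fell from 9.46 and 10.5 to 6.004 and 3.95 CPM (log2 -1.0 ± 0.25, adjusted p = 0.0194, and 0.107 without WT 2). Without KO 1 this list had 8 higher, and without KO 2 it had 6 lower. Of 33 genes that act in DNA or H3K9 methylation and in KRAB repression, 5 were higher and 5 lower (median 0.10). Mbd1, which encodes a protein that binds methylated CpG, fell from 7.73 and 7.71 to 0.0723 and 0.108 CPM (log2 -6.35 ± 0.40, adjusted p = 7.25e-06). Zfp445, whose product helps to keep imprints, fell from 30.2 and 31.2 to 14.97 and 17.8 CPM (log2 -0.91 ± 0.17), while its corepressor gene Trim28 rose from 119.7 and 125 to 203 and 284 CPM (log2 0.99 ± 0.16, adjusted p = 0.00259) and the H3.3 chaperone gene Daxx from 25.2 and 24.8 to 43.5 and 55.9 CPM (log2 0.99 ± 0.17, adjusted p = 0.0032). Without WT 1 and WT 2 the numbers higher were 2 and 2, with 3 lower without WT 2, and without KO 1 there were 9 higher and 8 lower. Histone variant and linker histone genes had 2 of 14 higher and 0 lower (median 0.12), with 1 higher without either WT library and 6 without KO 1. One of them was H2afz, the gene of H2A.Z.1, at 7.52 (WT 1) and 7.61 CPM (WT 2) against 20.8 (KO 1) and 16.0 CPM (KO 2) (log2 1.28 ± 0.21, adjusted p = 0.00236), while Anp32e, the chaperone that removes H2A.Z from nucleosomes, fell from 15.1 and 14.0 to 4.95 and 6.54 CPM (log2 -1.34 ± 0.22, adjusted p = 0.00256). Anp32e belongs to the list of H2A.Z deposition and removal, where 3 of 24 were higher and 2 lower (median 0.01, changing sign without WT 2), and 0 were higher without either WT library and 8 higher and 6 lower without KO 1. Polycomb genes had 4 of 34 higher and 2 lower (median 0.05, and -0.02 without KO 2), among them L3mbtl2, a subunit gene of a variant repressive complex, at 49.0 and 56.0 CPM in the WT pair and 75.8 and 129 CPM in the KO pair (log2 0.96 ± 0.22, and 0.53 without KO 2). The Polycomb list had 2 and 1 higher without WT 1 and WT 2, 10 higher and 5 lower without KO 1, and 8 lower without KO 2. Genes of H3K36, H3K79 and H4K20 methylation had 3 of 20 higher and 1 lower (median 0.09), with 0 called without WT 2, 1 without WT 1 and 6 higher without KO 1. RNA polymerase II and general factors had 5 of 49 higher and 4 lower (median 0.02). Polr2a, the largest subunit, rose from 7.87 and 9.38 to 25.3 and 36.1 CPM (log2 1.83 ± 0.22, adjusted p = 0.000407), and the elongation kinase gene Cdk9 from 4.52 and 3.503 to 11.2 and 12.6 CPM (log2 1.57 ± 0.23). Ccnh, of the kinase module of TFIIH, fell from 99.3 and 113 to 30.3 and 34.4 CPM (log2 -1.71 ± 0.15, adjusted p = 5.33e-05), and the X-linked Taf1, of TFIID, from 26.7 and 26.1 to 8.64 and 13.0 CPM (log2 -1.28 ± 0.22). This list had 3 higher and 3 lower without WT 1, 2 and 2 without WT 2, 13 and 13 without KO 1, and 9 higher without KO 2.

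Stress and metal-handling genes included both strong rises and strong falls. Heat shock response genes had 6 of 16 lower and 0 higher (median -0.33). Hspa1b, an inducible HSP70 gene, fell from 12.9 and 18.5 to 1.05 and 1.65 CPM (log2 -3.53 ± 0.30, adjusted p = 5.05e-05), and Hspb1, a small heat shock protein gene, from 3.599 and 5.31 to 0.434 and 0.395 CPM (log2 -3.41 ± 0.38, adjusted p = 0.000259). Hspa1b and Hspa1a are nearly identical, so the split of their reads is uncertain. Hsp90ab1, the constitutive HSP90 gene, fell from 536 and 521 to 309 and 346 CPM (log2 -0.69 ± 0.13, adjusted p = 0.0621 without WT 1). The heat shock list had 3 lower without WT 1 and without WT 2, and 9 lower and 4 higher without KO 1. The integrated stress and unfolded protein response list had 4 of 27 higher and 1 lower (median 0.20). Ddit3, the stress transcription factor CHOP, rose from 112 and 111 to 236 and 218 CPM (log2 1.02 ± 0.13, adjusted p = 0.000461), Atf4 rose from 124 and 99.5 to 160.4 and 175 CPM (log2 0.59 ± 0.14, adjusted p = 0.0169, and 0.34 without WT 2), and Asns, an asparagine synthetase gene, fell from 3.21 and 3.15 to 1.19 and 0.539 CPM (log2 -1.87 ± 0.40). Without KO 1 there were 10 higher on this list, and 2 without either WT library. Metallothionein and zinc transport genes had 7 of 18 higher and 2 lower (median 0.15), with 2 higher without either WT library. Besides Mt1, Mt2 had 9 and 8 counts in WT and 29 in both KO libraries (log2 1.78, adjusted p = 0.0306), and was not called without WT 1, WT 2 or KO 2 (adjusted p = 0.147, 0.201 and 0.0641) or with DESeq2 (adjusted p = 0.0906). Of the 21 members of this list, 18 were tested, and a member as low in WT as Mt2 could be tested only where KO held enough counts. The number higher is thus not support for a change of the list. The zinc exporter gene Slc30a4 fell from 66.0 and 57.7 to 13.3 and 11.5 CPM (log2 -2.32 ± 0.17, adjusted p = 1.98e-05), and Slc30a7, of the same family, from 2.22 and 2.72 to 0.470 and 0.252 CPM (log2 -2.76 ± 0.44). Genes of the p53 pathway and apoptosis had 5 of 34 higher and 3 lower (median 0.15). Bax, which permeabilises mitochondria in apoptosis, fell from 26.7 and 26.9 to 7.23 and 6.54 CPM (log2 -1.96 ± 0.19, adjusted p = 9.45e-05), and the damage response gene Gadd45b rose from 2.12 and 3.72 to 8.93 and 8.81 CPM (log2 1.60 ± 0.29, adjusted p = 0.0039). On that list 3 and 1 were higher without WT 1 and WT 2 and 2 without KO 2, 1 was lower without either WT library, and 6 and 7 were lower without KO 1 and KO 2.

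Housekeeping genes were called in both directions, and some of their lists hold mostly abundant transcripts. Over 100 CPM in the H2A.Z controls were 56 of 76 oxidative phosphorylation, 28 of 35 proteasome and 36 of 79 ribosomal protein genes. The proteasome share lower (8.57%) and the oxidative phosphorylation share higher (10.5%) are near those of all tested genes. So are the shares of the glycolysis and citrate cycle list, at 8.82% each way. The proteasome median of -0.15 is near that of all tested genes over 100 CPM (-0.16). These values are thus not a result about any of these lists. Cytosolic ribosomal protein genes had 20 of 79 higher and 1 lower (median 0.36), but the count moved most of all with single libraries, to 4 and 3 higher without WT 1 and WT 2 and 59 and 27 without KO 1 and KO 2. The 5.06% and 3.80% without WT 1 and WT 2 are near the shares of all genes in those fits. With library size alone 41 were higher. Rpl13a measured 67.5 and 81.6 CPM across WT but 120.4 and 196 CPM across KO (log2 1.09 ± 0.21, and 0.69 without KO 2), and the exception that fell was Rpl17, with 315 (WT 1) and 301 CPM (WT 2) against 159 (KO 1) and 135 CPM (KO 2) (log2 -1.07 ± 0.13, adjusted p = 0.000562). Nuclear-encoded oxidative phosphorylation genes had 8 of 76 higher and 4 lower, with a median of 0.00 that was 0.12 with library size alone. Atp5g3, a subunit gene of the ATP synthase ring, fell from 57.8 and 63.0 to 21.8 and 19.5 CPM (log2 -1.55 ± 0.16, adjusted p = 0.000147), Ndufv3, of complex I, from 78.3 and 84.5 to 38.7 and 39.0 CPM (log2 -1.07 ± 0.14), and Sdhc, of complex II, from 136 and 155 to 83.5 and 62.1 CPM (log2 -1.0 ± 0.16). The number higher on this list was 1 and 0 without WT 1 and WT 2, and without KO 1 there were 14 higher and 18 lower. Proteasome subunit genes had 3 of 35 lower and 0 higher (median -0.15), with 1 lower without either WT library and 15 without KO 1. The one that kept its call was Psmb10, an immunoproteasome subunit gene at 2.15 and 1.91 CPM in the WT pair and 0.651 and 0.395 CPM in the KO pair (log2 -1.95 ± 0.42). Glycolysis and citrate cycle genes had 3 of 34 higher and 3 lower (median 0.13), and Idh3g, described with its X-linked neighbours, fell the most. Without KO 1 there were 10 higher and 6 lower, without WT 1 there was 1 each way, and without WT 2 there were 0 higher. Cholesterol synthesis genes had 4 of 21 higher and 3 lower, with a median of 0.02 that changed sign with the replicate number as a block and in each fit without 1 library, down to -0.13. Without KO 1 there were 7 higher and 6 lower, and without either WT library 2 and 2. Cyp51, the sterol demethylase gene, fell from 5.57 and 5.24 to 0.832 and 0.216 CPM (log2 -3.36 ± 0.46, adjusted p = 0.000867), whereas Fdps, which makes farnesyl diphosphate, rose from 17.1 and 19.3 to 45.2 and 33.5 CPM (log2 1.11 ± 0.19).

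Lists of genes usually silent or low in oocytes were only partly testable. Of 32 genes of the 2-cell stage in the table, 7 had 0 counts in the 4 libraries and 17 were tested, 5 of them higher and 2 lower, with 3 higher without WT 2. A member that is low in WT could be tested only if KO held enough counts, so these counts are not support for a change of the list. Usp17lb, one of several near-identical deubiquitinase genes, rose from 0.353 and 0.318 to 4.12 and 1.73 CPM (log2 3.11 ± 0.52, adjusted p = 0.00265), and its relatives Usp17lc and Usp17le had log2 differences of 3.42 and 2.93, the latter with an adjusted p of 0.056 without KO 1. Usp17lc had 2 and 3 counts in WT and 34 and 21 in KO, and Usp17le 3 and 4 in WT and 35 and 19 in KO. The sizes of their differences thus rest on few WT reads. Reads shared between these copies cannot be assigned with certainty. Zscan4d had 270 and 165 counts in WT and 553 and 285 in KO, so that KO 2 was close to WT 1. Its relative Zscan4c had 49 and 54 counts in WT and 93 and 43 in KO, with KO 2 below both WT libraries. Of 67 developmental regulators in the table, 12 had 0 counts and 26 were tested, 2 of them higher and 3 lower. Sox2, a pluripotency transcription factor gene, measured 1.59 and 0.920 CPM across WT but 3.22 and 3.81 CPM across KO (adjusted p = 0.0146, and 0.142 without WT 2). Spermatogenic genes had 1 of 13 tested higher and 1 lower, of 29 in the table. Of 33 imprinted genes tested, 5 were higher and 1 lower (median 0.15), with 3 higher without either WT library and 4 lower without KO 1. Cdkn1c, a maternally expressed cell cycle inhibitor gene, rose from 10.7 and 10.4 to 28.9 and 29.8 CPM (log2 1.48 ± 0.17, adjusted p = 0.000344), and Tssc4, in the same imprinted region, from 11.2 and 8.53 to 20.1 and 25.2 CPM (log2 1.20 ± 0.21). Usp29, a paternally expressed gene, fell from 16.4 and 14.8 to 8.14 and 6.43 CPM (log2 -1.10 ± 0.21).

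Markers of follicle cells were followed to see whether other cells moved with the groups. Of 18 granulosa and cumulus markers, 12 were tested, with 7 higher and 2 lower, and their summed level was 99.3 and 101.9 CPM in the WT pair and 112 and 113 CPM in the KO pair. The median log2 difference of the 12 was 1.76, and between 1.42 and 2.04 under the alternatives, but markers that are low in WT could be tested only where KO held enough counts, so neither the count nor the median is support for a change of the list. Most of the sum came from Nr5a2, an orphan receptor, which rose from 36.8 and 36.3 to 62.4 and 60.5 CPM, and from Cyp19a1, the aromatase gene, which fell from 51.1 and 54.9 to 29.9 and 32.1 CPM. The defining marker Amh was at 0 in every library, and Foxl2 was at 0 in WT and at 0.0361 and 0.108 CPM in KO. The other markers called higher were low in every library. The gap junction gene Gja1 rose from 0.212 and 0.142 to 1.08 and 1.11 CPM, the inhibin subunit gene Inha from 0.388 and 0.212 to 1.52 and 0.970, its relative Inhbb from 0.0705 and 0.106 to 0.470 and 0.503, the steroid dehydrogenase gene Hsd17b1 from 0.458 and 0.141 to 1.37 and 0.862 and the prostaglandin synthase gene Ptgs2 from 0.599 and 0.248 to 1.301 and 2.62. Kitl, the ligand of Kit, fell from 7.93 and 7.71 to 4.52 and 4.31 CPM. Fshr, which encodes the FSH receptor, rose from 1.06 and 0.637 to 7.78 and 8.23 CPM (log2 3.23 ± 0.31, adjusted p = 0.000104). It was the only marker of this list whose call held without any 1 library. Nr5a2 was not called without WT 1 or WT 2 (adjusted p = 0.0672 and 0.0908), nor Cyp19a1 without WT 2 (adjusted p = 0.091), and the number higher was 2 without WT 2 and 4 without KO 1. Of 10 theca and stroma markers 4 were tested, with Star lower and 0 higher and a summed level of 9.66 to 11.0 CPM over the 4 libraries. Of 10 blood, immune and endothelial markers 5 were tested, with Tie1 higher and 0 lower and a summed level of 39.9 to 50.7 CPM, highest in KO 2. Pecam1 made up most of this sum. Neither Star nor Tie1 was called without WT 1 or WT 2. Any part of other cells in the results above was not tested beyond these levels.

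The 2 KO libraries also disagreed on some well-measured genes, described here without a test. Slc4a3, an anion exchanger gene, measured 90.0 (WT 1) and 44.2 CPM (WT 2) against 5.46 (KO 1) and 51.8 CPM (KO 2), and Noct, which encodes nocturnin, 316 and 328 CPM in the WT pair and 154 and 471 CPM in the KO pair. Neither was called, WT 1 and WT 2 differed for Slc4a3 as well, and the difference of Noct was 0.55 without KO 1 and -1.06 without KO 2. Sash1 measured 35.7 and 35.3 CPM in the WT pair and 36.6 and 72.0 CPM in the KO pair and was called higher only without KO 1 among the fits without 1 library, at 1.02. Ddit4, a stress-induced inhibitor of mTOR signalling, was higher in both KO libraries but more so in KO 2, with 14.4 (WT 1) and 15.2 CPM (WT 2) against 29.9 (KO 1) and 59.5 CPM (KO 2) (log2 1.60 ± 0.28, adjusted p = 0.0032, and a difference of 1.02 without KO 2). In the other direction, Suv39h1, an X-linked H3K9 methyltransferase gene, measured 251 and 217 CPM in the WT pair and 176 and 90.0 CPM in the KO pair (log2 -0.82 ± 0.25, adjusted p = 0.0408), with differences of -1.37 and -0.41 without KO 1 and KO 2, and was not called with DESeq2 or with library size alone (adjusted p = 0.23 and 0.0624). Nrbp1 measured 102 and 112 CPM in the WT pair and 73.8 and 32.2 CPM in the KO pair (log2 -1.01 ± 0.31, adjusted p = 0.0508), and was called lower in each fit without 1 library, at -1.73 without KO 1 and -0.53 without KO 2.

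The size of the Mll2 KO effect was tested against that of the libraries labelled DKO in the H2A.Z line, with all 8 libraries in one fit. The effects differed for 3291 of 16847 genes (19.5%), and for 22 of 25 genes, which are Kmt2b and the 24 with the largest changes by the rule above. Without 1 of the 8 libraries the number over all genes ran from 1639 without H2A.Z control 2 to 4639 without KO 1. Those 24 were chosen for their change in Mll2 KO, so the number that differ is not independent of the choice. The 3 that did not pass the test were Ccl2, Prkcb and Commd8 (adjusted p = 0.121, 0.126 and 0.084). In the H2A.Z line Tex15 stood at 228 and 186 CPM in the H2A.Z controls but 188 and 167 CPM under the DKO label, against the 27.1-fold decrease in Mll2 KO. Mt1 rose in both lines, with 8.17 and 3.39 CPM in the H2A.Z controls but 1256 and 1382 CPM under the DKO label. Its effects differed only at the edge of the threshold (adjusted p = 0.0492), as did those of Efcab7 (adjusted p = 0.0498), and these calls were lost in 9 and 8 of the 11 alternative fits.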

How the data were processed

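RNA was measured in the 4 Mll2 libraries, with 4 H2A.Z libraries used for expression bins and 1 interaction test. The authors deposited whole-number raw counts per gene symbol, not normalised. The tools named in the submitters' processing notes are RSEM 1.3.1, STAR 2.7.3 and Trim Galore 0.6.4, with build mm10. The sources used here do not give their roles, the annotation or any use of strand, so reads of overlapping and antisense genes cannot be told apart.

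The deposited counts were tested with edgeR 4.0.16 in R 4.3.3: genes were kept by filterByExpr, library sizes adjusted by TMM factors, and the robust quasi-likelihood test run on the 2 KO and 2 WT libraries (residual degrees of freedom 2), Benjamini-Hochberg adjusted over all tested genes. The SE is the log2 difference divided by the root of the F statistic. Alternatives were relative log expression factors, library size alone, 2 other filters, DESeq2 1.42.0, all 8 libraries, the replicate number as a block, no robust estimation, and leaving out each library. Limma 3.58.1 supplied functions to edgeR. Gene positions came from RefSeq GRCm38.p6, the build called mm10 in the labels, for 15638 tested genes. Replicate numbers were not treated as pairs: deviations of same-numbered libraries correlated by -0.0318.

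Genes were named by a rule: the H3K4 methyltransferases, the 12 called genes with the largest differences each way at a level of at least 10 CPM in the group where they were higher, the 6 most abundant called each way, up to 4 called members of each of 34 lists by smallest p, any called H3K4 gene, and the 6 largest KO 2 against KO 1 differences each way at 50 CPM or more. Predicted, clone, pseudogene and microRNA symbols were left out. Some genes that the rule names are not reported here. The X-linked genes, the genes switched between groups, CYTB, Foxl2, Pecam1, Cyp11a1, Mt2, Zscan4c, Zscan4d and Kmt2a were named after their values were seen. The members and lists were chosen with earlier results of these data known. No library was left out of the results.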

Additional observations from a re-analysis of the deposited data

Results flagged for a closer look

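For 22 genes the difference between Mll2 KO and Mll2 WT was not the same as the difference between the libraries labelled DKO and the H2A.Z controls, by the interaction contrast of edgeR over all 8 libraries. Values are the Mll2 log2 difference minus the H2A.Z log2 difference. The H2A.Z libraries are named by their labels, and nothing here rests on a loss of H2A.Z transcripts. Among genes that rose in Mll2 KO, the contrast was 1.49 for Mt1, 2.55 for Krt79, 4.45 for Ntf3, 3.14 for Cdc5l, 2.41 for Ptgds and 2.25 for Cldn34d. It was 1.24 for Prpf39, 2.19 for Tex19.2, 1.64 for Terf2ip and 3.33 for Ube2dnl1. Ntf3 measured 1.29 and 3.43 CPM in the H2A.Z controls but 2.44 and 2.66 CPM under the DKO label, and Prpf39 28.6 and 24.1 CPM in the H2A.Z controls but 96.1 and 109 CPM under the DKO label. Among genes that fell, it was -2.72 for Kmt2b, -4.97 for Hnrnph2, -4.91 for Zfp512, -4.77 for Fmr1nb, -5.28 for Ccdc172 and -2.69 for Zfp788. It was -6.14 for Gli3, -4.19 for Xlr3c, -5.05 for Tmem47, -4.54 for Tex15, -1.36 for Efcab7 and -3.90 for Xlr4b. Gli3 measured 20.7 and 26.6 CPM in the H2A.Z controls but 43.6 and 24.9 CPM under the DKO label, and Ccdc172 62.5 and 60.1 CPM in the H2A.Z controls but 47.2 and 42.2 CPM under the DKO label. Efcab7 fell in both lines and measured 15.4 and 16.2 CPM in the H2A.Z controls but 0.932 and 2.23 CPM under the DKO label. Of the 22 calls, 18 held in all 11 alternative fits. That of Mt1 (adjusted p = 0.0492) was lost in 9 of them, with adjusted p up to 0.229 and a contrast of 0.75 without H2A.Z control 1. That of Efcab7 (adjusted p = 0.0498) was lost in 8, with adjusted p up to 0.449 and contrasts of -0.62 without DKO 2 and -0.80 without KO 1. Terf2ip was not called without H2A.Z control 1 or DKO 1 (adjusted p = 0.0585 and 0.0566), nor Gli3 without KO 1 (adjusted p = 0.0534). The contrast of Hnrnph2 was -8.77 without KO 1, where the remaining KO library had 0 counts. The 24 genes other than Kmt2b were chosen for a large change in the Mll2 line, which alone favours a difference from another line.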

How the results depend on the processing

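The numbers of genes higher and lower (1636 and 1830) stayed within 1.5 times under relative log expression factors, library size alone, both other filters, DESeq2, all 8 libraries and no robust estimation. Leaving out 1 library moved the number higher between 637 and 3378 and the number lower between 904 and 3485. With the replicate number as a block, which the numbers do not justify, 1977 were higher and 2122 lower, and no named gene lost its call. Every gene called both in the comparison and in one of the 12 alternatives kept its direction, and 1151 genes were called in all of them. Of 144 called genes named for size, level or list, 42, 61, 3 and 7 lost their call without WT 1, WT 2, KO 1 and KO 2. With library size alone 9 lost it (Skp1a, Nsd1, Phc3, Kit, Foxr1, Khdc3, Psmc5, Psmc2 and Ddx25), and with DESeq2 3 (Commd8, Star and Tie1). Of the 4 called among genes named for a difference between the KO libraries, Suv39h1, Nlrp4g and Fbxw16 lost their call with DESeq2 (adjusted p = 0.23, 0.178 and 0.172), Suv39h1 also with library size alone (adjusted p = 0.0624) and Nlrp4g with all 8 libraries (adjusted p = 0.0883). Mt2 lost its call with DESeq2 and with all 8 libraries (adjusted p = 0.0906 and 0.0644). Of the 25 genes tested for a difference from the H2A.Z effect, 20, 21 and 22 were called with relative log expression factors, library size alone and the replicate block, and 20 to 22 without 1 library, where 22 were called with all of them. Without KO 2 the uncalled differences of Kmt2d and Setd1a turned to -0.0605 and -0.0085, where without KO 1 they were 0.21 and 0.63. The uncalled difference of Noct turned to 0.0887 with library size alone and ran from -1.06 without KO 2 to 0.554 without KO 1, and that of Atp6v0c from -0.89 without KO 1 to 0.0727 without KO 2. The cause of these changes was not tested. Where a WT or KO library was left out, the lone library was taken to vary like the other group. Promoter CG content was not compared between called genes, at 1 threshold or at a 2-fold change, because only 77.0% of tested genes had a promoter window. With 2 libraries a group, small changes depend on how alike 2 replicates happened to be.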
